A study of Mus musculus with 12 samples.

Results

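A set of 10 genes of glucose breakdown and of the response to low oxygen was followed across 4 sorted stromal populations of mouse bone and bone marrow. The 10 genes were Hif1a, Slc2a1, Hk1, Hk2, Pfkp, Pgk1, Ldha, Pdk1, Bnip3 and Egln3, taken by their mouse symbols from 49585 genes counted. All 10 passed the filter on low counts (0.5 CPM, or counts per 1000000 counts, in 1 library or more), as did 18648 genes in all. The cells came from male wild-type C57BL/6 mice 8 to 10 weeks old, in the steady state, and every population was sorted free of blood (CD45), erythroid (Ter119) and endothelial (CD31) cells. Itga8+ MSCs were Alcam+ Sca-1- cells with integrin alpha 8 on their surface, and Itga8- bone-lining cells (Itga8- BLCs) were Alcam+ Sca-1- cells without it, which the labels call osteoblasts. Sca-1+ MSCs were Alcam- Sca-1+ cells, and CD51+CD140a+ MSCs were the stromal cells of the marrow around vessels. They are called Itga8+, Itga8-, Sca-1+ and CD51+CD140a+ cells below. Each population had 3 libraries, each made from 2000 cells by SMART-Seq v4, a full-length cDNA method for small inputs. The first 3 populations were released by collagenase from flushed bone fragments and CD51+CD140a+ MSCs from the flushed marrow with another enzyme, so that source, digestion and population cannot be told apart in comparisons with these cells.

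Hypoxia-inducible factor 1 alpha, encoded by Hif1a, is made and destroyed continually while oxygen is present, because prolyl hydroxylases such as the product of Egln3 mark it for degradation, and it is therefore controlled largely as a protein and less as an mRNA. When oxygen falls it binds DNA with its partner ARNT and raises glucose transporters, glycolytic enzymes, lactate dehydrogenase A, pyruvate dehydrogenase kinase 1 and the mitophagy receptor BNIP3. Skeletal stem and progenitor cells live in a marrow of low oxygen and are known for a high rate of glycolysis. The counts here are of mRNA and measure neither the protein of Hif1a nor the flow of glucose.

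The 12 libraries held 17580677 to 31332475 counts. Totals were 17580677 to 19312217 in Itga8+ cells, 20084801 to 27574679 in Itga8- cells, 17681562 to 21062370 in Sca-1+ cells and 29652779 to 31332475 in CD51+CD140a+ cells. A count of 3 was worth 0.082 to 0.18 CPM, below the lowest level of any of the 10 genes. The labels do not say whether the 3 libraries of a population came from separate animals, and p-values below measure only the spread between these libraries. In sorted bulk samples fewer cells of a type and less RNA per cell cannot be told apart.

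Both Alcam+ populations held 1 library that stood apart. A length measure was taken as the median log2 deviation from the mean of all libraries in the long genes (exon length of 7033 bases or more) minus that in the short genes (2893 bases or less), out of 9146 genes. It was -1.96 in Itga8+ replicate 2 and -1.40 in Itga8- replicate 3, while the other 10 libraries lay between -0.60 and 0.77. The same libraries had the lowest summed level of 6 cartilage markers in their populations, 14588 against 76131 and 120922 CPM in Itga8+ cells and 13812 against 43846 and 74385 CPM in Itga8- cells. The cartilage sum was 9178 to 9827 CPM in Sca-1+ cells and 538 to 1353 CPM in CD51+CD140a+ cells, and no cartilage marker was at 0 throughout a population. Itga8+ replicate 2 also had the highest sums of 8 neutrophil markers, 18770 CPM against 7024 and 2882 CPM in its population, and of 8 erythroid markers, 1606 CPM against 169 and 130 CPM. Calls of the 10 genes are given below with all libraries and with these 2 left out. Among the sorting markers, Itga8 averaged 103 CPM in Itga8+ cells, 1.74 CPM in Itga8- cells and 64.4 CPM in CD51+CD140a+ cells. Ly6a (Sca-1) averaged 636 CPM in Sca-1+ cells against 27.5 CPM or less elsewhere. Alcam was low in every population, with a mean of 4.92 CPM at most. The osteoblast gene Bglap averaged 3304 CPM in Itga8- cells against 7.13 CPM or less elsewhere. Of 8 osteoblast markers, 5 were called (as defined below) higher in Itga8- cells than in CD51+CD140a+ cells. Ibsp was called lower, at 3462 against 10118 CPM.

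**Figure D1:**
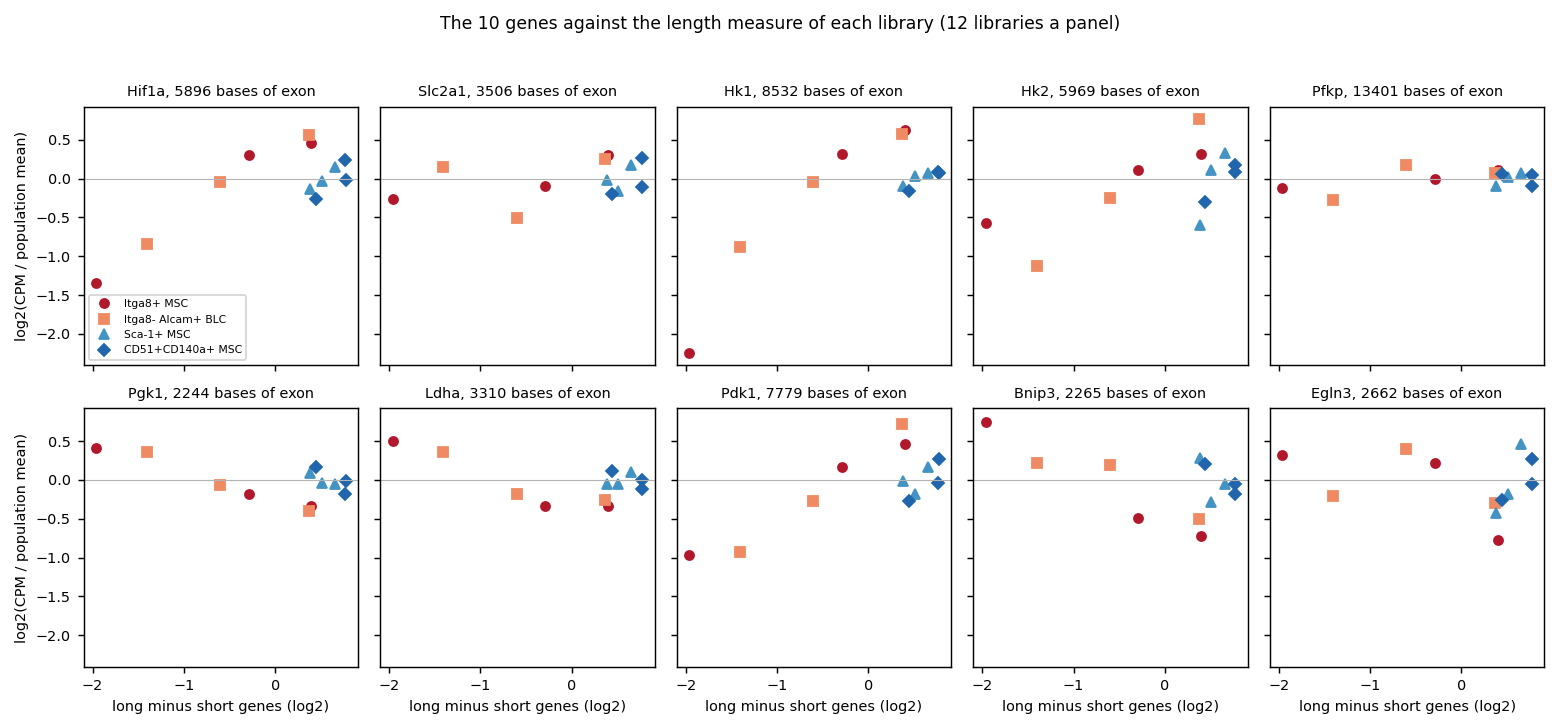
Log2 ratio of each gene's CPM to its population mean plotted against the length measure of the library (log2), with 1 panel for each gene and 1 point for each library. Hif1a (5896 bases) and Hk1 (8532 bases) lay lowest, and Ldha (3310 bases) and Bnip3 (2265 bases) highest, in Itga8+ replicate 2 (length measure -1.96). Not all genes followed length. Pfkp, the longest (13401 bases), lay at -0.117 there and Slc2a1 (3506 bases) at -0.264.

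Among the 6 comparisons, the 10 genes gave the most calls between the 2 Alcam+ populations and CD51+CD140a+ cells. A gene was called where the adjusted p of edgeR's quasi-likelihood test (Benjamini-Hochberg over all genes) was under 0.1 and the fold above 2. Against CD51+CD140a+ cells, 8 of the 10 were higher in Itga8+ cells and 7 of the 10 in Itga8- cells, and no gene of the 10 was called lower in either. The background was 35.6% of all genes called in the first comparison (21.2% higher and 14.3% lower) and 35.3% in the second (20.4% higher and 14.9% lower). Sca-1+ cells exceeded CD51+CD140a+ cells in 3 of the 10, Pfkp, Bnip3 and Egln3, against a background of 20.5% (11.2% higher and 9.3% lower). The median log2 difference of the 10 genes was 1.32, 1.34 and 0.71 in these 3 comparisons, beside 0.18, 0.09 and -0.0026 over all genes. The comparisons share the CD51+CD140a+ libraries and are not independent.

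Among the bone populations, Itga8+ cells against Itga8- cells gave the fewest calls. Of the 10 genes, 1 (Slc2a1) was called between them and was lower in Itga8+ cells, where 3.82% of all genes were called (1.66% higher and 2.16% lower). At an unadjusted p under 0.05 the same test held for 2 genes, and limma-trend called 0 and DESeq2 1 of the 10. Against Sca-1+ cells, 4 genes were higher (Slc2a1, Pgk1, Ldha, Pdk1) and 1 lower (Egln3) in Itga8+ cells, with a background of 21.7% (12.9% higher and 8.89% lower). In Itga8- cells 3 were higher (Slc2a1, Hk2, Ldha) and 3 lower (Pfkp, Bnip3, Egln3) than in Sca-1+ cells, with a background of 26.4% (14.5% higher and 11.9% lower). The libraries of the compared populations did not overlap for 3, 6 and 6 of the 10 genes in these 3 comparisons, where all genes gave 14.2%, 37.6% and 45.7%. Against CD51+CD140a+ cells the libraries did not overlap for 8 genes in Itga8+ cells, 8 in Itga8- cells and 7 in Sca-1+ cells, beside 44.4%, 49.8% and 45.9% of all genes.

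With the 2 libraries low on long transcripts left out, more of the 10 genes were called in the comparisons of Alcam+ cells with the other populations. Itga8+ cells then had 6 higher and 1 lower than Sca-1+ cells, with Hif1a and Hk1 gained, and 9 higher than CD51+CD140a+ cells, with Hif1a and Hk1 gained and Bnip3 lost. Itga8- cells had 6 higher and 2 lower than Sca-1+ cells, with Hif1a, Hk1 and Pdk1 gained and Pfkp lost, and 9 higher than CD51+CD140a+ cells, with Hif1a and Hk1 gained. Over all genes the calls in these 4 comparisons were 3684, 5707, 4992 and 6227, beside 4055, 6631, 4930 and 6578 with every library. Between the Alcam+ populations 0 of the 10 were called in that setting by edgeR. Both libraries held the lowest Hif1a, Hk1 and Pdk1 of their populations, and leaving them out was chosen after the data were seen.

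**Figure D2:**
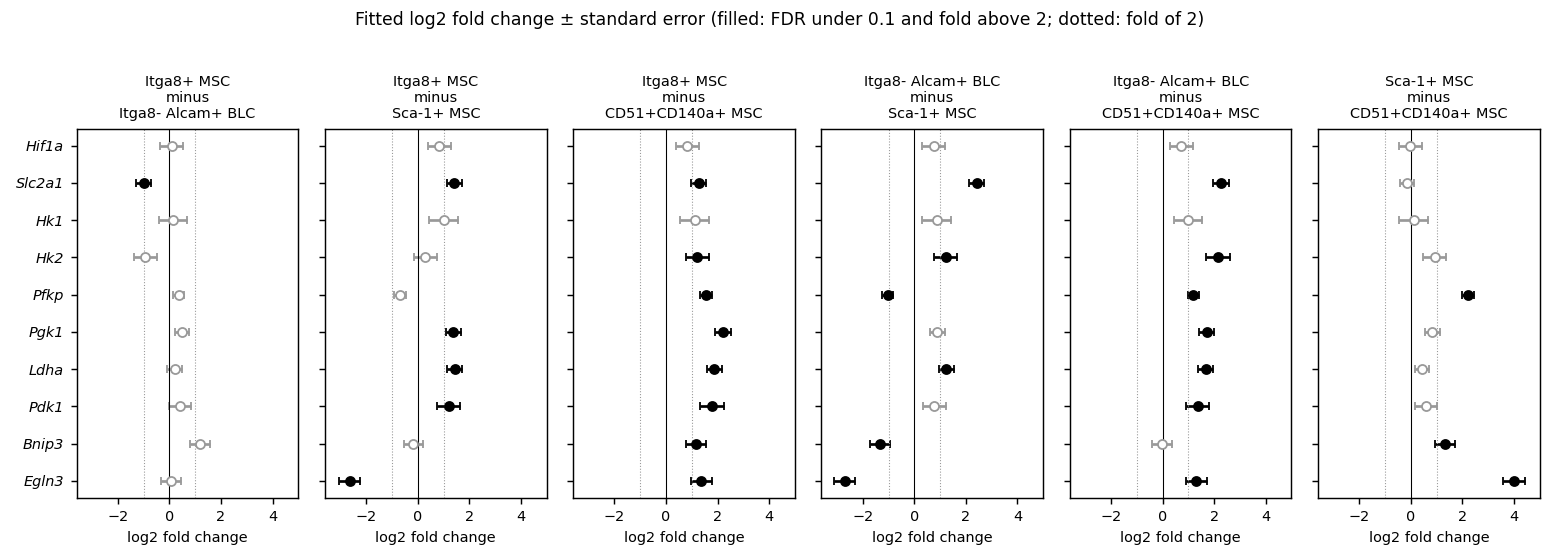
Log2 fold change with its standard error for each of the 10 genes in the 6 comparisons, with called differences as filled points. Differences ran from -2.70 for Egln3 (Itga8- cells against Sca-1+ cells) to 4.01 for Egln3 (Sca-1+ cells against CD51+CD140a+ cells).

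The promoters of 4 of the genes are shown because HIF-responsive genes are known to carry the core letters ACGTG or GCGTG near their starts. RefSeq (GRCm38.p6) held all 10 genes, with 13 promoter windows of 250 bases before the start. Capitals mark every ACGTG or GCGTG on either strand, overlapping matches running together. The windows are Ldha chr7:46845554-46845803 (plus strand), Pgk1 chrX:106186850-106187099 (plus), Bnip3 chr7:138909507-138909756 (minus) and Egln3 chr12:54203875-54204124 (minus), each written 5′ to 3′ on the strand of the gene.
Ldha: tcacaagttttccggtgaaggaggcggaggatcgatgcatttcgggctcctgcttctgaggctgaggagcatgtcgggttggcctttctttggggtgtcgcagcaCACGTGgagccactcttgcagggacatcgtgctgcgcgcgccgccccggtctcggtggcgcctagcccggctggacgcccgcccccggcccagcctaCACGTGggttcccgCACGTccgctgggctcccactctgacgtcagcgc
Pgk1: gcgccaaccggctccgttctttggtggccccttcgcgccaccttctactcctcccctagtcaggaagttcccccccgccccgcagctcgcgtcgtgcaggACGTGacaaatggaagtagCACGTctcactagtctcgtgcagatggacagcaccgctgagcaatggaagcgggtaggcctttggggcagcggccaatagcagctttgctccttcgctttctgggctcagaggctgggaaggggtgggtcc
Bnip3: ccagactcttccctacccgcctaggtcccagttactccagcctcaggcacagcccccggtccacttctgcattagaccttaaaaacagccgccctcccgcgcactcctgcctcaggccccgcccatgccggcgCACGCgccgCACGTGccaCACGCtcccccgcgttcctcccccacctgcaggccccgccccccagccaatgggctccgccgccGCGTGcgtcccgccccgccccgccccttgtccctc
Egln3: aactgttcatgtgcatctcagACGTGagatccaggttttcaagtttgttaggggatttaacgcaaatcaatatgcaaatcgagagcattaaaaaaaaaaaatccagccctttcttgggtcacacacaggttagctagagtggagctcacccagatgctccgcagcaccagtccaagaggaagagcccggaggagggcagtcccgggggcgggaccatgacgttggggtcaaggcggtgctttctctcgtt
In the window shown, Ldha held 5 matches to ACGTG, from 34 to 145 bases before the start, and they included both strands of the palindrome CACGTG. Its other window held 0 to ACGTG and 1 to GCGTG. Pgk1 held 2, at 131 and 150 bases. Bnip3 held 2 to ACGTG and 3 to GCGTG, from 35 to 117 bases. Egln3 held 1, at 229 bases. Each window shown holds ACGTG, whereas 1 window of Hk1 and 1 of Pdk1 held neither. ACGTG was found in 7 of the 13 windows and in 16.6% of 32851 windows of all genes, GCGTG in 6 of 13 and 28.2%, and either in 11 of 13 and 38.6%. A match to these letters is a description of the sequence, and binding was not measured.

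**Figure D3:**
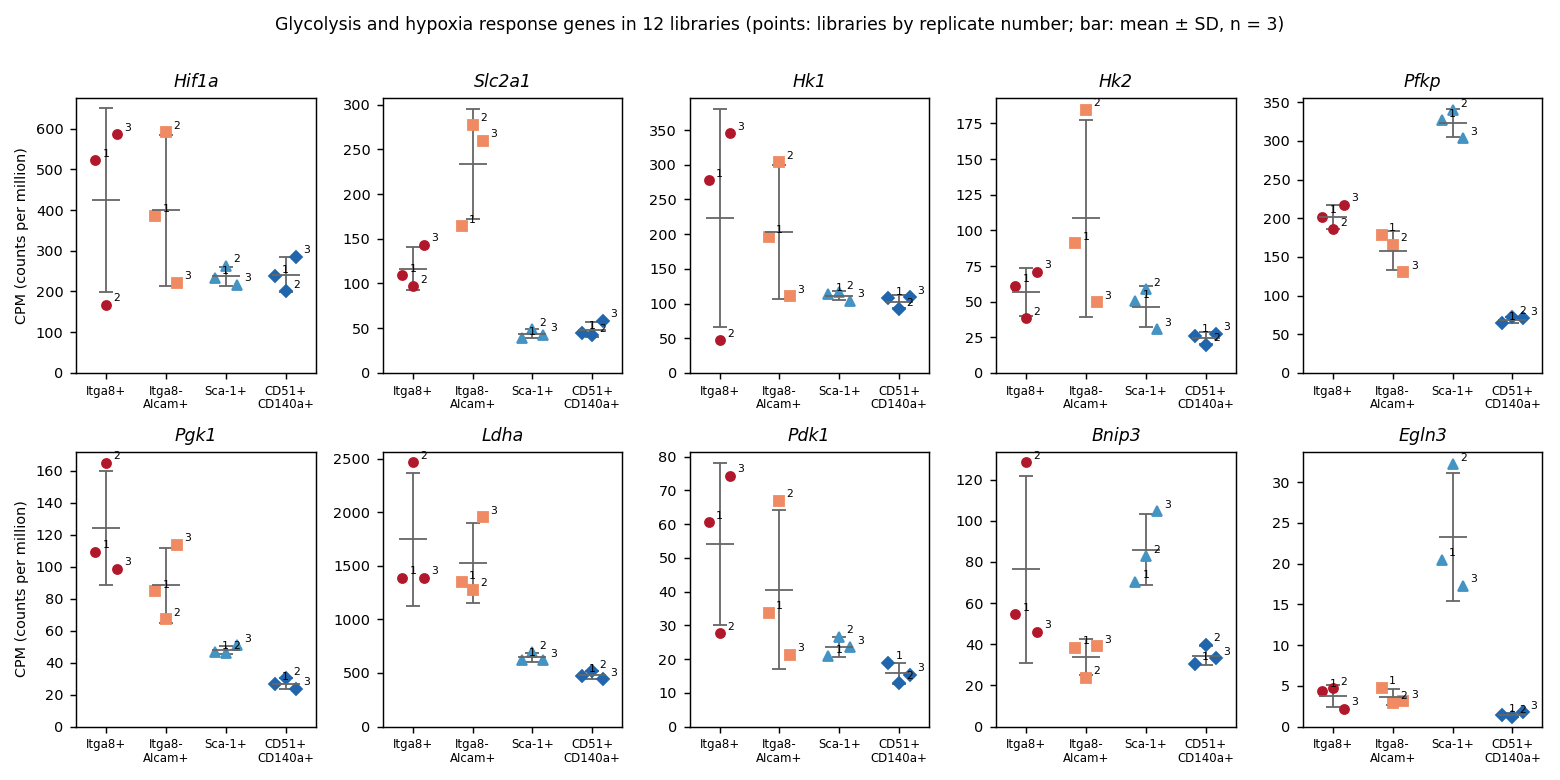
CPM on a linear axis of the 10 genes in each of the 12 libraries, grouped by population, with the population mean and SD. Ldha was the most abundant at 442 to 2466 CPM, and Egln3 the least at 1.20 to 32.2 CPM.

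Hif1a, the oxygen-regulated subunit of HIF-1, was at 522, 167 and 586 CPM in Itga8+ cells, at 386, 591 and 222 CPM in Itga8- cells, at 233, 263 and 217 CPM in Sca-1+ cells and at 238, 201 and 285 CPM in CD51+CD140a+ cells. The libraries at 386 CPM or more were all Alcam+, 1 library of each Alcam+ population was as low as those of the other populations, and the libraries overlapped in all 6 comparisons. Means were 425 ± 226, 399 ± 185, 238 ± 23.1 and 241 ± 42.2 CPM (SD, n = 3 each). Hif1a was called in no comparison in the fit of all 12 libraries, for example at a log2 difference of 0.84 ± 0.45 (SE) between Itga8+ and Sca-1+ cells with an adjusted p of 0.211. The low library of Itga8+ cells is replicate 2, 1 of the 2 set apart by the length measure. Without it Hif1a was higher in Itga8+ cells than in Sca-1+ cells (log2 1.21, edgeR adjusted p = 0.0370) and than in CD51+CD140a+ cells (1.22, adjusted p = 0.0210). With both such libraries left out, it was also higher in Itga8- cells than in these populations (1.04 and 1.02, edgeR adjusted p = 0.00765 and 0.00620). The libraries left out held the lowest Hif1a of their populations and were chosen after the data were seen. Leaving them out raises these differences by itself, so these p-values describe the remaining libraries only. The exons of Hif1a span 5896 bases, and the part of transcript length or of cartilage and neutrophil RNA in these levels was not tested.

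Epas1, which encodes HIF-2 alpha, was high in CD51+CD140a+ cells alone. It was at 203, 174 and 216 CPM in CD51+CD140a+ cells and at 3.30 to 10.3 CPM in the 9 other libraries, so that no library overlapped. The log2 difference from CD51+CD140a+ cells was -5.05 ± 0.48 in Itga8+ cells, -5.32 ± 0.49 in Itga8- cells and -4.52 ± 0.47 in Sca-1+ cells (SE; edgeR adjusted p = 1.91e-05, 1.39e-05 and 3.81e-05). Per length of transcript, as TPM (counts per base of exon, scaled to the same total in each library), Hif1a made up 98.2%, 98.7%, 96.3% and 53.0% of the summed HIF alpha transcripts in Itga8+, Itga8-, Sca-1+ and CD51+CD140a+ cells, and Epas1 46.1% in the last. For Hif1a itself the log2 difference of Sca-1+ from CD51+CD140a+ cells was -0.02 ± 0.44 (SE). Arnt, which encodes the common partner subunit, and Vhl, Hif1an, Egln1 and Egln2, which act on the alpha subunits, were called in no comparison.

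Egln3, which encodes a prolyl hydroxylase and is itself a HIF target, had the widest range of the 10 genes. It was at 20.5, 32.2 and 17.3 CPM in Sca-1+ cells (370, 633 and 369 counts). In Itga8+ cells it was at 4.35, 4.67 and 2.20 CPM, in Itga8- cells at 4.73, 2.92 and 3.12 CPM and in CD51+CD140a+ cells at 1.39, 1.20 and 1.74 CPM. All 3 Sca-1+ libraries lay above the 9 others, the libraries of both Alcam+ populations intermixed, and those of CD51+CD140a+ cells were lowest. Egln3 was 16.1-fold higher in Sca-1+ cells than in CD51+CD140a+ cells (log2 4.01 ± 0.44, SE, edgeR adjusted p = 5.24e-05). It was 6.22-fold higher than in Itga8+ cells and 6.49-fold higher than in Itga8- cells (edgeR adjusted p = 0.00139 and 0.000885). Against CD51+CD140a+ cells it was also higher in Itga8+ cells (log2 1.37 ± 0.40, adjusted p = 0.0236) and in Itga8- cells (1.31 ± 0.40, adjusted p = 0.0277), calls lost in 2 and 3 of 19 alternative settings. Egln3 contributed 17.9% of the TPM of the 3 prolyl hydroxylase genes in Sca-1+ cells and 1.82% to 5.82% in the other populations.

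Slc2a1 encodes GLUT1, the glucose transporter of most proliferating and progenitor cells. Itga8- cells had the highest levels, 164, 277 and 260 CPM, followed by Itga8+ cells at 109, 96.9 and 143 CPM. Sca-1+ cells were at 38.9, 48.9 and 42.9 CPM and CD51+CD140a+ cells at 44.9, 42.2 and 58.5 CPM. Every Alcam+ library was above every library of the other populations, and every Itga8- library above every Itga8+ library. Slc2a1 was 5.36-fold higher in Itga8- cells than in Sca-1+ cells and 4.81-fold higher than in CD51+CD140a+ cells (edgeR adjusted p = 0.000220 and 0.000156). The Itga8+ cells exceeded the same populations by 2.67-fold and 2.39-fold (edgeR adjusted p = 0.00652 and 0.00634), and these 4 differences were called in all 19 alternatives. The difference between the Alcam+ populations was a log2 of -1.01 ± 0.28 (SE) with an adjusted p of 0.0999, close to both limits, and 16 of 19 alternatives did not call it.

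Slc2a3, which encodes the transporter GLUT3, was high in CD51+CD140a+ cells alone. Its CPM was 228, 275 and 264 in CD51+CD140a+ cells and 4.80 to 30.7 in the other 9 libraries. The log2 difference from CD51+CD140a+ cells was -3.62, -3.78 and -3.52 in Itga8+ cells, Itga8- cells and Sca-1+ cells (edgeR adjusted p = 0.00110, 0.000838 and 0.00156). Per length, the mean of Slc2a1 was 114, 195 and 46.2 TPM and that of Slc2a3 10.3, 8.25 and 11.5 TPM in Itga8+ cells, Itga8- cells and Sca-1+ cells. In CD51+CD140a+ cells Slc2a1 was at 55.5 TPM and Slc2a3 at 141 TPM. The predominant transporter transcript of the pair was thus Slc2a1 in the 3 bone populations and Slc2a3 in CD51+CD140a+ cells.

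**Figure D4:**
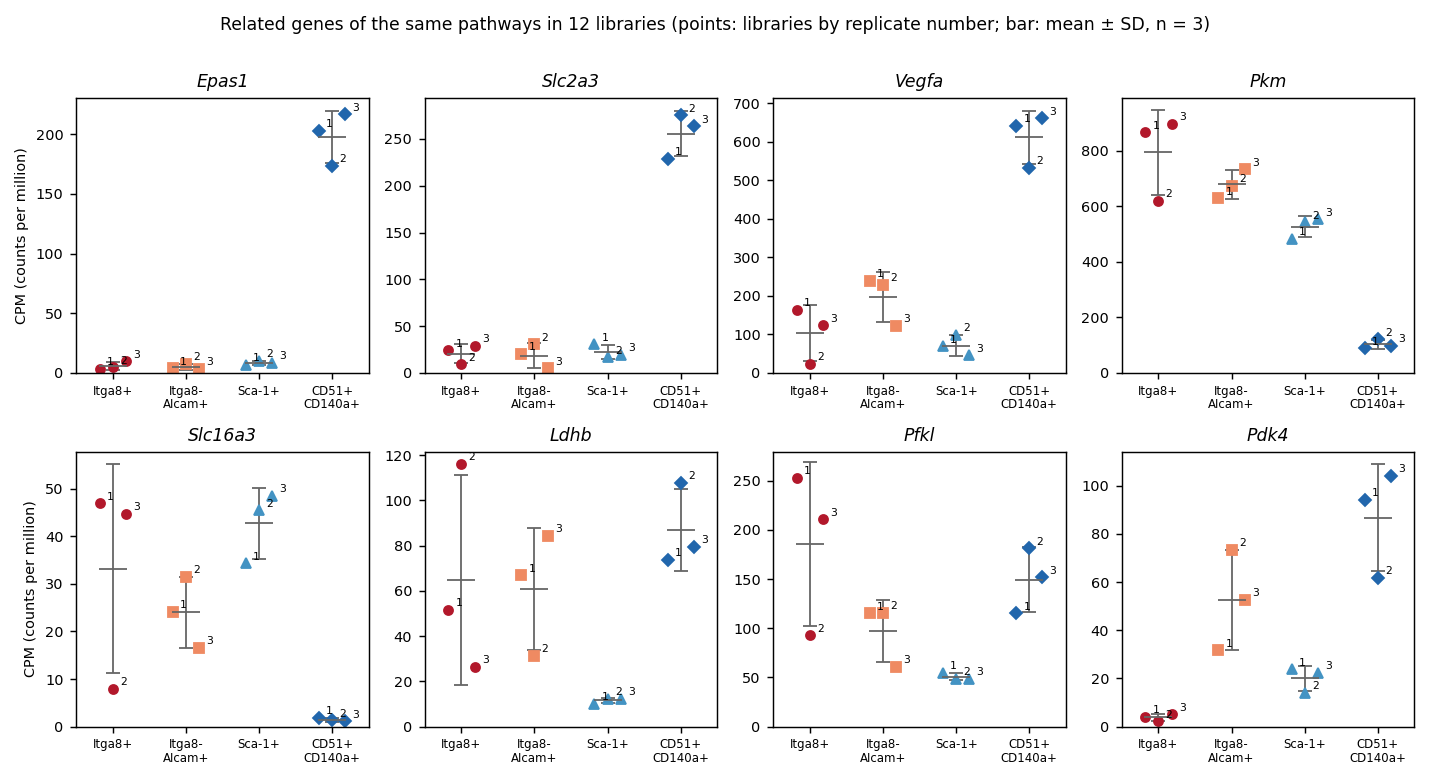
CPM on a linear axis of 8 genes from the same pathways in each library, grouped by population. Epas1, Slc2a3 and Vegfa were highest in CD51+CD140a+ cells, and Pkm and Slc16a3 lowest there (88.3 to 121 and 1.06 to 1.80 CPM).

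Hk1 and Hk2 encode hexokinases, which trap glucose in the cell by phosphorylation. Hk1 was at 278, 46.8 and 345 CPM in Itga8+ cells, at 196, 303 and 111 CPM in Itga8- cells, and at 91.6 to 116 CPM in the other 6 libraries. The low Itga8+ library was again replicate 2 and the low Itga8- library replicate 3. Hk1, with 8532 bases of exon, was called in no comparison (Itga8+ against CD51+CD140a+ cells, log2 1.12 ± 0.56, SE, edgeR adjusted p = 0.148). Without Itga8+ replicate 2 it was higher in Itga8+ cells than in Sca-1+ cells (log2 1.47, edgeR adjusted p = 0.0142) and than in CD51+CD140a+ cells (1.62, adjusted p = 0.00446). With both libraries left out it was also higher in Itga8- cells than in these populations (1.17 and 1.28, edgeR adjusted p = 0.00310 and 0.00122). As for Hif1a, the libraries left out held the lowest Hk1 of their populations, so these p-values describe the remaining libraries only.

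Hk2, the inducible hexokinase, was highest in Itga8- cells at 90.9, 185 and 49.5 CPM. It was at 61.0, 38.3 and 70.9 CPM in Itga8+ cells, at 50.3, 58.6 and 30.6 CPM in Sca-1+ cells and at 26.0, 19.8 and 27.5 CPM in CD51+CD140a+ cells. The CD51+CD140a+ libraries lay below the 9 others, while those of the bone populations overlapped. Hk2 was 4.44-fold higher in Itga8- cells (edgeR adjusted p = 0.00443) and 2.32-fold higher in Itga8+ cells (adjusted p = 0.0596) than in CD51+CD140a+ cells. It was 2.33-fold higher in Itga8- cells than in Sca-1+ cells (edgeR adjusted p = 0.0717), although these libraries overlapped. The last call was lost in 8 of 19 alternatives, where the log2 difference ranged from 0.56 to 1.57, and the call of Itga8+ cells in 6 of 19. Hk3 averaged 35.8, 52.4, 14.0 and 14.3 CPM in Itga8+, Itga8-, Sca-1+ and CD51+CD140a+ cells. It was called higher in Itga8- cells than in Sca-1+ and CD51+CD140a+ cells, calls lost in 3 and 2 of 19 alternatives. The call of Hk3 in Itga8+ cells over CD51+CD140a+ cells was lost in 9 of 19.

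Pfkp encodes the platelet type of phosphofructokinase, the committed step of glycolysis. Its levels were tight within each population. Sca-1+ cells had 327, 340 and 304 CPM, Itga8+ cells 202, 186 and 218 CPM, Itga8- cells 179, 165 and 130 CPM and CD51+CD140a+ cells 64.3, 71.7 and 70.8 CPM. No library of any population overlapped with those of another. Against CD51+CD140a+ cells the level was 4.69-fold higher in Sca-1+ cells, 2.92-fold in Itga8+ cells and 2.29-fold in Itga8- cells (edgeR adjusted p = 3.92e-05, 0.000382 and 0.00199). Pfkp was also lower in Itga8- cells than in Sca-1+ cells (log2 -1.03 ± 0.22, SE, edgeR adjusted p = 0.00758). Between Itga8+ and Sca-1+ cells the log2 difference of -0.68 ± 0.22 did not reach the fold limit (edgeR adjusted p = 0.0597). With 13401 bases of exon Pfkp was the longest of the 10 transcripts. With the trend of each library on gene length removed, the differences of Itga8- and Itga8+ cells from Sca-1+ cells became -0.21 and 0.15. The excess over CD51+CD140a+ cells kept its call. In Itga8- replicate 3 and Itga8+ replicate 2, both low on long genes, Pfkp lay at -0.28 and -0.12 (log2) from its population mean. Hk1 lay at -0.88 and -2.25 there. The part of length in the differences of Pfkp was not tested.

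Pgk1 encodes phosphoglycerate kinase, the first ATP-yielding step of glycolysis, and Ldha encodes lactate dehydrogenase A, which turns pyruvate into lactate. Pgk1 was at 109, 165 and 98.6 CPM in Itga8+ cells, at 84.5, 67.1 and 114 CPM in Itga8- cells, at 46.4, 46.1 and 50.9 CPM in Sca-1+ cells and at 26.7, 30.2 and 23.6 CPM in CD51+CD140a+ cells. The 6 Alcam+ libraries lay above the 3 Sca-1+ libraries, which lay above those of CD51+CD140a+ cells. Relative to CD51+CD140a+ cells, Pgk1 was 4.63-fold higher in Itga8+ cells and 3.29-fold higher in Itga8- cells (edgeR adjusted p = 0.000198 and 0.00100). It was 2.60-fold higher in Itga8+ cells than in Sca-1+ cells (edgeR adjusted p = 0.00787), a call lost with the length trend removed (log2 0.92). In Itga8- cells the excess over Sca-1+ cells was 1.85-fold (edgeR adjusted p = 0.0451), under the fold limit.

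Ldha had the same order of populations. It was at 1389, 2466 and 1390 CPM in Itga8+ cells, at 1348, 1274 and 1955 CPM in Itga8- cells, at 623, 692 and 619 CPM in Sca-1+ cells and at 476, 517 and 442 CPM in CD51+CD140a+ cells. Per length it was the most abundant of the 10 genes in every population, with means of 1678, 1322, 724 and 582 TPM. Both Alcam+ populations stood clear of the other 6 libraries, and the highest library of each was the one low on long transcripts. The level in Itga8+ cells was 2.71-fold that in Sca-1+ cells and 3.65-fold that in CD51+CD140a+ cells (edgeR adjusted p = 0.00676 and 0.000648). In Itga8- cells the excess was 2.37-fold and 3.19-fold (edgeR adjusted p = 0.0109 and 0.00128). These 4 calls held in all 19 alternatives each, with log2 differences of 1.02 to 2.01. Between Itga8+ cells and Itga8- cells the log2 difference was 0.20 ± 0.29 (SE).

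Enzymes and transporters next to these steps were not all ordered alike. Pkm, pyruvate kinase, was at 88.3, 121 and 98.6 CPM in CD51+CD140a+ cells and at 483 to 897 CPM elsewhere, with log2 differences of 2.95, 2.72 and 2.36 for Itga8+ cells, Itga8- cells and Sca-1+ cells (edgeR adjusted p = 1.04e-05, 1.66e-05 and 4.81e-05). Slc16a3, which encodes the lactate exporter MCT4, was at 1.80, 1.29 and 1.06 CPM in CD51+CD140a+ cells and at 7.89 to 48.5 CPM elsewhere (log2 4.58, 4.11 and 4.94). Ldhb, whose product favours the reverse reaction from lactate to pyruvate, was at 10.1, 12.2 and 12.3 CPM in Sca-1+ cells and at 26.5 to 116 CPM elsewhere. It was higher than there in Itga8+ and Itga8- cells by 2.49 and 2.40 on the log2 scale, and Sca-1+ cells differed from CD51+CD140a+ cells by -2.91 (edgeR adjusted p = 0.00730, 0.00673 and 0.00183). Gapdh was counted at a mean of only 0.593 to 3.84 CPM in the 4 populations. Of the stretches of 50 bases in Gapdh and in Pkm, 74.9% and 74.2% occur in no other gene. Gapdh shares stretches with 223 genes. How reads matching several genes were treated is not given, so the error of either level cannot be told.

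Pdk1 encodes a pyruvate dehydrogenase kinase that keeps pyruvate out of the mitochondrial cycle. It was at 60.6, 27.6 and 74.4 CPM in Itga8+ cells, at 33.7, 66.9 and 21.2 CPM in Itga8- cells, at 20.8, 26.6 and 23.4 CPM in Sca-1+ cells and at 18.9, 13.0 and 15.3 CPM in CD51+CD140a+ cells. All Alcam+ libraries were above the CD51+CD140a+ libraries, and the lowest of each Alcam+ population was again the one low on long transcripts. Pdk1 was 3.44-fold higher in Itga8+ cells and 2.58-fold higher in Itga8- cells than in CD51+CD140a+ cells (edgeR adjusted p = 0.0115 and 0.0363). The first call held in all 19 alternatives, and the second was lost in 4 of 19, with log2 differences down to 0.80. Pdk1 was 2.30-fold higher in Itga8+ cells than in Sca-1+ cells (edgeR adjusted p = 0.0870), a call lost in 10 of 19 alternatives.

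The sister kinase genes had other orders of populations. Pdk4, known as the kinase induced by fasting and fatty acids, was at 4.06, 2.13 and 5.14 CPM in Itga8+ cells and at 31.7, 73.4 and 52.6 CPM in Itga8- cells. In Sca-1+ cells it was at 23.7, 14.1 and 22.3 CPM and in CD51+CD140a+ cells at 94.2, 61.9 and 104 CPM. Itga8+ cells were below every other library, with log2 differences of -3.80, -2.41 and -4.52 from these populations (edgeR adjusted p = 0.000984, 0.00296 and 3.02e-05). Pdk3 was lowest in Sca-1+ cells (30.6 ± 1.63 CPM, SD, n = 3) and was at 74.6, 76.7 and 77.7 CPM on average in the other 3 populations. Against Sca-1+ cells it was higher in Itga8+ and Itga8- cells (log2 1.29 and 1.33, edgeR adjusted p = 0.00832 and 0.00539), the direction of Pdk1 in Itga8+ cells. Pdk2 was lower in both Alcam+ populations than in CD51+CD140a+ cells, with log2 differences of -1.13 and -1.09 (edgeR adjusted p = 0.0313 and 0.0342). Among the 4 kinase genes, Pdk1 thus differed from CD51+CD140a+ cells in the direction opposite to Pdk2 in both Alcam+ populations and to Pdk4 in Itga8+ cells.

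Bnip3 encodes a mitochondrial receptor for mitophagy. Sca-1+ cells had 70.4, 82.7 and 105 CPM, Itga8+ cells 54.5, 128 and 46.2 CPM, Itga8- cells 38.4, 23.8 and 39.1 CPM and CD51+CD140a+ cells 30.5, 39.8 and 33.2 CPM. The highest library was Itga8+ replicate 2, the library low on long transcripts, and Bnip3 has only 2265 bases of exon. Itga8- cells and CD51+CD140a+ cells overlapped and were below Sca-1+ cells in every library. Bnip3 was 2.54-fold higher in Sca-1+ cells than in Itga8- cells and 2.49-fold higher than in CD51+CD140a+ cells (edgeR adjusted p = 0.0295 and 0.0361). It was 2.21-fold higher in Itga8+ cells than in CD51+CD140a+ cells (edgeR adjusted p = 0.0435), a call lost in 6 of 19 alternatives. All 3 Itga8+ libraries were above the 3 Itga8- libraries (log2 1.18 ± 0.39, SE), but the adjusted p was 0.183. Only 3 of 19 alternatives called this difference. They were DESeq2 (1.21, adjusted p = 0.0620), the length trend removed (1.08, edgeR adjusted p = 0.0335) and Itga8+ replicate 3 left out (1.43, edgeR adjusted p = 0.0879). Without Itga8+ replicate 2, the highest library, it was not called. Bnip3l, its close relative, was called in no comparison.

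Shares within enzyme families compared levels per length inside each library. Pfkp made up 65.6% ± 1.46 of phosphofructokinase TPM in Sca-1+ cells, 32.3% ± 10.5 in Itga8+ cells, 33.2% ± 3.84 in Itga8- cells and 14.4% ± 0.936 in CD51+CD140a+ cells (SD, n = 3 each). The remainder was mostly Pfkl, the liver type, which was 53.5% and 62.1% in Itga8+ and CD51+CD140a+ cells. Pfkm made up 13.7% to 26.9% in the 4 populations, and its level was called in no comparison. Ldha made up 93.3%, 92.4% and 96.4% of lactate dehydrogenase A and B in the bone populations and 72.5% in CD51+CD140a+ cells. Pdk1 made up 16.3%, 9.25%, 9.78% and 2.90% of the 4 kinase genes, from Itga8+ through Itga8- and Sca-1+ to CD51+CD140a+ cells. Hk1 made up 44.1% to 60.2%, Hk2 20.5% to 31.5% and Hk3 15.3% to 24.7% of the hexokinase genes in the 4 populations. Exact two-sided permutation tests of 3 against 3 libraries cannot go below p = 0.1, and no adjusted value over 42 tests was under 0.162. The shares of Pfkp, Ldha and Pdk1 depend on the transcript length used. With the longest coding sequence in place of all exons Pfkp rose to 82.7% in Sca-1+ cells and 28.1% in CD51+CD140a+ cells, Pdk1 to 33.9% in Itga8+ cells, and Ldha to 83.7% in CD51+CD140a+ cells.

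**Figure D5:**
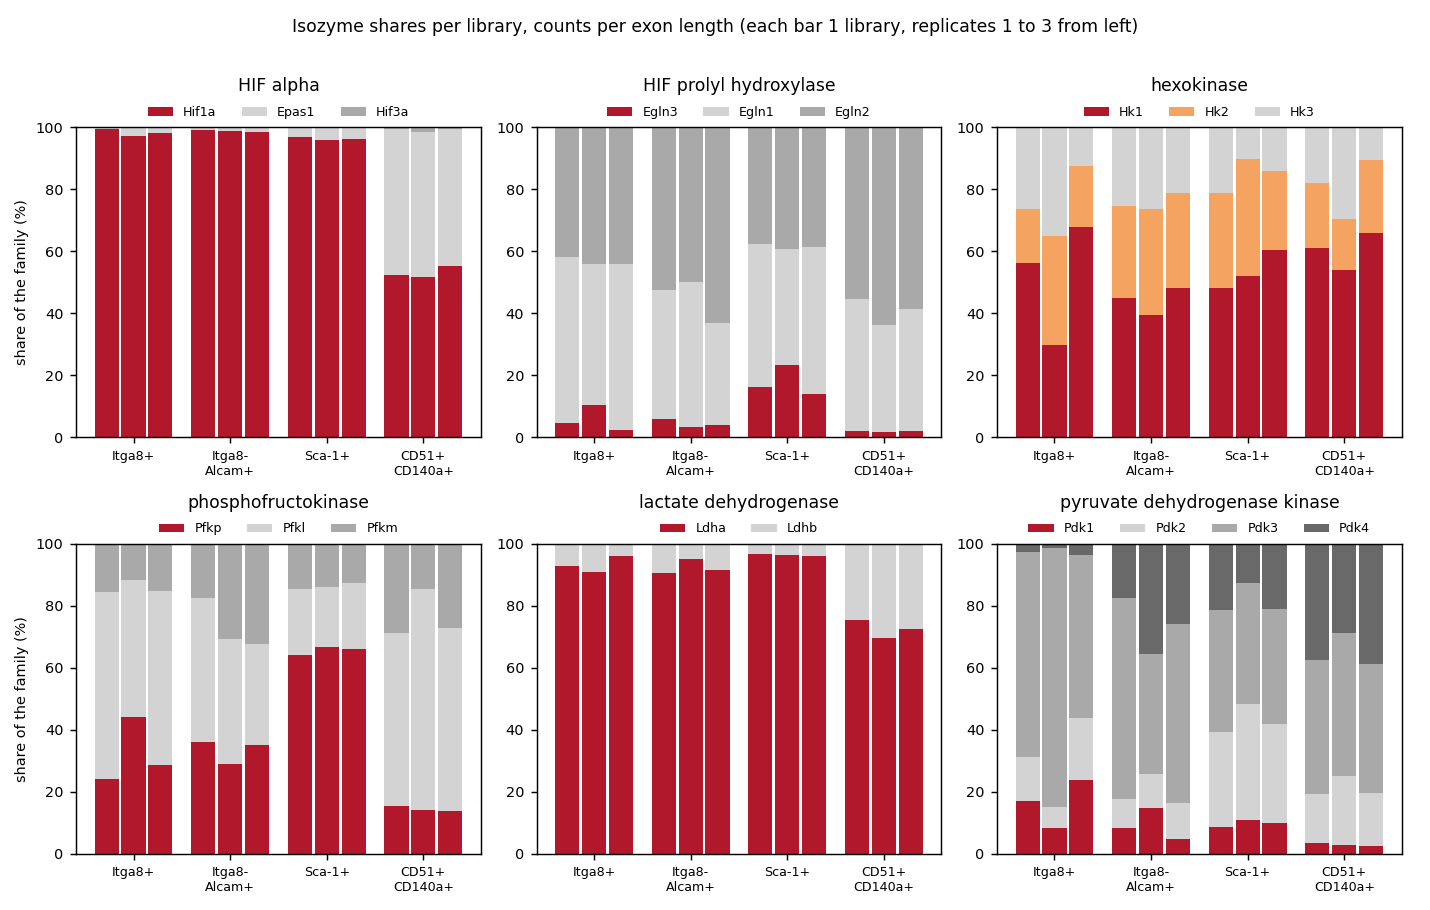
Percent of family TPM contributed by each gene, for 6 families, with 1 bar for each library and the 3 libraries of a population side by side. The HIF alpha bars of CD51+CD140a+ cells are split between Hif1a (mean 53.0%) and Epas1 (46.1%), while Hif1a fills 96.3% or more on average in the other populations.

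Other genes of the pathways were counted with the 10 left out. Of 27 further glycolysis genes tested, 8 were higher and 0 lower in Itga8+ cells than in Sca-1+ cells, among them Pfkl and Ldhb, where all genes gave 12.9% and 8.89%. Against CD51+CD140a+ cells 9 were higher and 4 lower in Itga8+ cells, 11 and 4 in Itga8- cells, and 5 and 6 in Sca-1+ cells. All genes gave 21.2% higher and 14.3% lower, 20.4% and 14.9%, and 11.2% and 9.3% in these comparisons, so that the 4 lower of 27 lay near the background. Itga8- cells had 9 higher and 2 lower than Sca-1+ cells (14.5% and 11.9% of all genes). Gapdh, whose level is uncertain, was 1 of these 2. It was also 1 of the 4 lower in each Alcam+ population than in CD51+CD140a+ cells. Itga8+ cells had 1 lower than Itga8- cells, Slc2a4, named here after its value was seen. The median log2 difference of the 27 genes was 0.68 between Itga8+ and Sca-1+ cells and 0.58, 0.61 and -0.03 against CD51+CD140a+ cells in the order above, beside 0.16, 0.18, 0.09 and -0.0026 over all genes.

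The 26 further HIF targets were divided in direction. Against CD51+CD140a+ cells 10 were higher and 4 lower in Itga8+ cells, 10 and 4 in Itga8- cells, and 7 and 3 in Sca-1+ cells, with the background of all genes as for the glycolysis genes. The lower counts lay near that background and the higher counts above it. The median log2 difference of the 26 genes was 0.49, 0.59 and 0.62, beside 0.18, 0.09 and -0.0026 over all genes. Vegfa, the main growth factor of vessels, and Slc2a3 were among those lower in each of the 3. Vegfa was at 641, 532 and 661 CPM in CD51+CD140a+ cells and at 23.3 to 239 CPM elsewhere, with log2 differences of -2.56, -1.63 and -3.10 for Itga8+ cells, Itga8- cells and Sca-1+ cells (edgeR adjusted p = 0.00656, 0.0461 and 0.00297). Itga8- cells had 9 of the 26 higher and 1 lower than Sca-1+ cells, and Itga8+ cells 3 higher and 4 lower, where all genes gave 14.5% and 11.9%, and 12.9% and 8.89%. Between the Alcam+ populations edgeR's quasi-likelihood test called 0 of 26, 5 had an unadjusted p under 0.05, and DESeq2 called 1 and limma-trend 0. Adm, which encodes adrenomedullin, was lower in Itga8+ than in Sca-1+ cells (log2 -1.59, edgeR adjusted p = 0.0774), a call lost in 7 of 19 alternatives, while Car9 and Ddit4 were called in no comparison. Of 13 further HIF regulators 2 were higher and 4 lower in Itga8+ cells than in CD51+CD140a+ cells, Epas1 among the lower, where all genes gave 21.2% and 14.3%. Their median log2 difference was -0.50. Of 12 further genes of the pyruvate dehydrogenase gate, 1 was higher and 3 lower in the same comparison (median -0.32), and at most 2 were higher and 3 lower in any comparison.

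Markers of other cells and of handling moved with the same contrasts. The summed level of 13 immediate early and stress genes was 21066 to 28714 CPM in CD51+CD140a+ cells and 10957 to 18118 CPM in the bone populations. Single genes differed in direction. Relative to CD51+CD140a+ cells, 7 of the 13 were lower and 1 higher (Ier3) in Itga8+ cells, 6 lower and 4 higher (Ier3, Hspa1a, Atf3, Hspa1b) in Itga8- cells, and 5 lower and 2 higher (Hspa1a, Hspa1b) in Sca-1+ cells. Neutrophil markers summed to 2882 to 18770 CPM in Itga8+ cells and 6042 to 8712 CPM in Itga8- cells, against 1009 to 2331 CPM in the other 2 populations, and all 8 were called higher in both Alcam+ populations than in CD51+CD140a+ cells. Tendon markers summed to 12896 to 23551 CPM in Itga8+ cells, 3788 to 6396 CPM in Itga8- cells and 6266 to 9352 CPM in Sca-1+ cells. In CD51+CD140a+ cells they summed to 83.4 to 113 CPM. Markers of LepR+ stroma summed to 44723 to 61184 CPM in CD51+CD140a+ cells and 740 CPM or less elsewhere. Ptprc (CD45) and Pecam1 (CD31), excluded by the sort, averaged 8.55 to 17.3 CPM and 3.99 to 6.40 CPM. The part of these cells and of handling in the levels of the 10 genes was not tested.

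Within the set, some genes rose and fell together across the 12 libraries. As a description over libraries that share population, length measure and marker sums, Pearson's r of log2(CPM + 1) was 0.97 for Pgk1 with Ldha and for Hif1a with Hk1, 0.86 for Hif1a with Pdk1, and 0.86 for Pfkp with Egln3. The lowest value was -0.51, between Hk1 and Bnip3. Among 9140 other genes with a mean of at least 10 CPM, the nearest to Pgk1 was Pgam1 (0.989), the glycolytic mutase, and the nearest to Ldha were Pgam1 and Tpi1 (both 0.984), which encode glycolytic enzymes too. Hif1a (0.978) and Hk1 (0.973) both lay near Srebf1, a regulator of lipid synthesis. Slc2a1 lay near Col13a1 (0.986), Pfkp near Ntrk2 (0.991), Egln3 near Osr2 (0.980), Hk2 near Flvcr1 (0.940), Pdk1 near Slc35e3 (0.962) and Bnip3 near Psmd5 (0.944). For Slc2a1, Hif1a and Bnip3 these are the second nearest. Their nearest were the overlapping antisense genes Gm12868 (0.992), Gm15283 (0.983) and Gm45507 (0.994).

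Reads of several of the genes can fall on overlapping or near-identical genes. Only 46.1% of the stretches of 50 bases in Pgk1 and 52.8% of those in Bnip3 occur in no other gene, whereas the other 8 lie between 90.7% (Ldha, which shares stretches with 328 genes) and 100%. The pseudogenes Pgk1-rs7 and Ldha-ps2 held at most 0.358% and 0.619% of the counts of their parents. These shares do not show reads left uncounted for matching several genes, and how such reads were treated is not given. The antisense genes Gm45507, Gm15283 and Gm12868, which overlap Bnip3, Hif1a and Slc2a1, held 35.6% to 43.5%, 14.8% to 19.1% and 7.99% to 12.2% of the counts of these genes. The library method does not keep strand, so that sense and antisense reads cannot be told apart, and adding these counts to the parents left every call except that of Slc2a1 between the Alcam+ populations.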

How the data were processed

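The deposited files hold raw counts per Ensembl gene for 12 libraries, which the authors made from NextSeq 500 reads on mm10. The submitters' processing notes name Trimmomatic 0.38, HISAT2 2.1.0, SAMtools 1.9 and featureCounts 1.6.3, whereas the methods of the study name TopHat, Bowtie2 and iDEP. Annotation release, strand setting and treatment of multi-mapped reads are not given in the sources used here. Counts were fitted with edgeR 4.0.16 (R 4.3.3; quasi-likelihood test, TMM scaling with factors of 0.783 to 1.17) over all 12 libraries and the 18648 genes that reached 0.5 CPM in 1 library or more. Calls needed a Benjamini-Hochberg adjusted p under 0.1 and a fold above 2, as the study used. The script was tested on simulated data. CPM are TMM-scaled. TPM and shares used all exon bases of GENCODE M21 (GRCm38), which listed 49326 of the 49585 IDs. Promoter windows came from RefSeq.

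Groups came from the labels, with 6 comparisons among 4 populations. The 10 genes, the 22 partner genes named whatever their values, and the gene lists were chosen with earlier results of these data known. Of the listed genes only counts were to be given, and for each of the 10 genes the nearest genes by Pearson's r over 12 libraries. Replicate numbers were not used as pairs. Over 18 pairs of libraries with the same number, the correlation of deviations from the population means ran from -0.74 to 0.34 and exceeded 0.1 in 5. Alternatives covered DESeq2 1.42.0, limma-trend 3.58.1, other scalings, filters and thresholds, thinning to 17580677 counts, a replicate block, and leaving out each library. Adding reads of near-identical copies, removing the trend on gene length and leaving out both libraries low on long genes were chosen after seeing the data.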

Additional observations from a re-analysis of the deposited data

How the results depend on the processing

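Between Itga8+ cells and Itga8- cells the call of Slc2a1 was fragile. The number of the 10 genes called fell from 1 to 0 with an adjusted p under 0.05, limma-trend, scaling by RLE or by library totals, every gene with a count kept, only the populations compared, thinned counts, reads of near-identical copies added, and both libraries low on long genes left out. It was 1 under DESeq2 and with the length trend removed, but the gene was then Bnip3 and 0 were shared. Library totals alone gave 4 in place of 7 for Itga8- cells against CD51+CD140a+ cells, losing Pfkp, Pdk1 and Egln3, and moved the median of all genes there by -0.33 and by -0.18 to 0.26 in the other comparisons. With 1 library left out the counts ranged from 0 to 2, 4 to 7, 6 to 9, 4 to 6, 6 to 7 and 2 to 3 in the order Itga8+ cells against Itga8- cells, Sca-1+ and CD51+CD140a+ cells, Itga8- cells against the last 2, and Sca-1+ against CD51+CD140a+ cells. The cause of these changes was not tested.

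Whether the numbers of the replicates pair the libraries could not be told. Of 12 libraries 5 correlated best with their own number. The 2 libraries low on long genes carry different numbers and stand apart in these correlations' input, so pairing is not excluded. With the replicate block the 10 genes gave 0, 4, 8, 5, 7 and 3 calls in the same order, and calls over all genes changed from 712 to 433, 4055 to 2878, 6631 to 5450, 4930 to 4168, 6578 to 5754 and 3827 to 3254. Over all genes other settings moved the first count to 276 (only the populations compared), 464 (adjusted p under 0.05) and 1203 (DESeq2), and the second to 2706 (adjusted p under 0.05). Without Sca-1+ replicate 2 the second was 2386, and without Itga8- replicate 3 the first was 433.

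Of 1130 values of the 10 genes under alternatives 1018 kept direction and side of the threshold, 65 lost and 23 gained a call, and 24 changed sign, all of them differences not called. Against Itga8- cells the difference of Itga8+ cells was -0.18 for Hk1 under limma-trend and -0.19 for Egln3 with both libraries left out. With single libraries left out it ran from -0.20 to 0.50 for Hif1a, -0.31 to 0.64 for Hk1, -0.11 to 0.41 for Ldha and -0.11 to 0.33 for Egln3. Against Sca-1+ cells that of Pfkp was 0.15 with the length trend removed, and that of Bnip3 ran from -0.79 to 0.036. Between Sca-1+ and CD51+CD140a+ cells Hif1a was 0.0011 under DESeq2 and RLE and -0.14 to 0.12 without single libraries, and Hk1 -0.030 with library totals. Bnip3 in Itga8- cells against CD51+CD140a+ cells was 0.012 with the replicate block and -0.15 to 0.16 without single libraries.

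Family shares moved with the length used. Given for the longest coding sequence and then for counts without length scaling, Ldha was 96.4% and 96.7% in Itga8+ cells, 96.0% and 96.2% in Itga8- cells, 98.1% and 98.2% in Sca-1+ cells and 83.7% and 84.7% in CD51+CD140a+ cells. In the same order Pfkp was 50.8% and 50.9%, 55.3% and 55.5%, 82.7% and 82.7%, and 28.1% and 28.2%, and Pdk1 was 33.9% and 35.0%, 20.1% and 20.9%, 21.1% and 22.0%, and 6.80% and 7.14%. By coding sequence Egln3 was 6.19% in Itga8- cells, 23.4% in Sca-1+ cells and 2.64% in CD51+CD140a+ cells, and Hif1a 55.2% in the last. Without length scaling Egln3 was 1.56% in CD51+CD140a+ cells and Hk2 28.8% in Itga8- cells. Of 713 values of called differences of the partner genes 670 kept direction and side of the threshold, 43 lost the call and 0 changed sign. Partner differences that were not called are not counted among these.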
